A study of Mus musculus with 8 samples.

Results

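The genes described here encode the mitochondrial carriers of the SLC25 family and the subunits of the translocases that bring proteins into mitochondria. They were taken from the deposited gene table by symbol, as Slc25a, Timm or Tomm followed by a digit, with a mean over the 8 libraries of at least 1 count per 1000000 reads (CPM). Of 15728 genes listed, 58 had such a symbol and 57 reached that mean: 36 Slc25a, 11 Timm and 10 Tomm genes. Slc25a34 was the 1 left out, at 0.130 to 0.380 CPM in TR and 0.320 to 0.960 CPM in WT. Just inside the limit were Slc25a27, at a mean of 1.22 CPM, and Timm8a1, at 1.71 CPM. All 57 also passed the filter of the test.

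The inner membrane of the mitochondrion is closed to most metabolites. Each SLC25 carrier passes its own substrates, such as ADP against ATP, phosphate, citrate, aspartate, acylcarnitine, coenzyme A or iron. Nearly all mitochondrial proteins are made in the cytosol: they enter through the TOM complex of the outer membrane, and the TIM23 complex then takes those with a cleavable presequence, while the small TIM chaperones hand carriers to the TIM22 complex. In the lung, alveolar type 2 and ciliated cells are known as rich in mitochondria.

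CAGE (cap analysis of gene expression) was run on lung RNA of 4 triply n/i/eNOSs-/- mice (TR) and 4 wild type mice (WT). The method sequences capped 5′ ends and so counts each transcript once, whatever its length. TR mice carry deletions of all 3 nitric oxide synthase genes, Nos1 (neuronal), Nos2 (inducible) and Nos3 (endothelial), and the labels name no promoter or cell type that would limit the deletions. Mice of both groups were unexposed and 4 weeks old, and the strain background was C57BL/6J; the labels give no sex or litter. Whole lung was used, so fewer cells of a type and less RNA per cell cannot be told apart in any result below.

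Libraries held 13014134 to 15096188 reads in TR and 15598154 to 18593913 reads in WT, and the least abundant member had at least 10 reads in every library. Nos3 stood at 5.56 to 8.83 CPM in TR and 18.2 to 22.8 CPM in WT (log2 fold change -1.38, SE 0.137, limma adjusted p = 4.58e-05); the labels do not say where its deleted part lies relative to the reads. Lung markers were present in both groups, and those of a list did not all move alike. Of the 6 alveolar type 2 markers, Sftpc and Sftpa1 were lower, Abca3 was higher (313 ± 21.5 CPM in TR and 165 ± 7.49 CPM in WT) and 3 were not called. Sftpc, at 35921 to 47667 CPM in TR and 66885 to 82563 CPM in WT, made up most of their sum (45051 to 56969 CPM in TR and 76425 to 92851 CPM in WT), and its call ended with quantile normalization (adjusted p = 0.171). Of the 5 alveolar type 1 markers, Hopx and Rtkn2 were higher, Pdpn was lower (109.8 ± 13.0 CPM in TR and 195 ± 25.7 CPM in WT) and 2 were not called; Hopx made up most of the sum (7124 to 7844 CPM in TR and 6144 to 6667 CPM in WT). Of the 5 ciliated cell markers with a row 4 were lower, among them Foxj1 (51.7 ± 4.66 CPM in TR and 85.1 ± 3.69 CPM in WT), while the most abundant, Tppp3, was not called (sum 577 to 697 CPM in TR and 756 to 819 CPM in WT). T cell markers summed to 26.6 to 35.1 CPM in TR and 37.3 to 44.3 CPM in WT, with 1 of 4 lower. TR replicate 1 stood apart from the other TR libraries in several ways. Arntl, a clock activator, was at 7.22 CPM in it and at 20.5 to 22.8 CPM in the others, against 2.03 to 2.74 CPM in WT. Dbp, another clock gene, was at 40.3 CPM in it and at 4.69 to 6.21 CPM in the others, against 79.3 to 97.8 CPM in WT. The genotypes thus differed as groups in both clock genes. Arntl was higher (limma adjusted p = 1.35e-04) and Dbp lower (limma adjusted p = 0.00107) in every TR library. Dividing cell markers summed to 7.48 CPM in it and to 24.2 to 29.0 CPM in the other TR libraries, against 9.52 to 11.2 CPM in WT. B cell markers summed to 122 CPM in it and to 33.7 to 64.6 CPM in the other TR libraries, against 91.9 to 138 CPM in WT. The part of these shifts in the results below was not tested, apart from leaving out each library in turn.

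The sequences below are the promoter windows of the 4 members that fell and the 2 that rose with the smallest adjusted p among those with a window. They show the DNA around the 5′ ends that CAGE counts. Each runs from 250 bases before to 50 bases after the annotated start (RefSeq, build GRCm38.p6), is written 5′ to 3′ on the strand of the gene, and has E-boxes (CACGTG), GC boxes (GGGCGG) and CCAAT boxes in capitals, on either strand. The submitters' processing notes name another build (mm9), so these are annotated starts and not measured ones. Slc25a33 (chr4:149774218-149774517, minus strand), Slc25a28 (chr19:43674832-43675131, minus strand), Slc25a23 (chr17:57059814-57060113, minus strand) and Timm17a (chr1:135313688-135313987, minus strand) were lower in TR, and Tomm20l (chr12:71111178-71111477, plus strand) and Timm22 (chr11:76406675-76406974, plus strand) were higher.
Slc25a33: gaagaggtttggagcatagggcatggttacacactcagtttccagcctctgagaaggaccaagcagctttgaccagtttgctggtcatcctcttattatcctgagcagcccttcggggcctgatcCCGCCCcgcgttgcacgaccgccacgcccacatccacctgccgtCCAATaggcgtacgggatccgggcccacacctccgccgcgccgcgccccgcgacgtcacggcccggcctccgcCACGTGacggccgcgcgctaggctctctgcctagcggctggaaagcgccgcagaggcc
Slc25a28: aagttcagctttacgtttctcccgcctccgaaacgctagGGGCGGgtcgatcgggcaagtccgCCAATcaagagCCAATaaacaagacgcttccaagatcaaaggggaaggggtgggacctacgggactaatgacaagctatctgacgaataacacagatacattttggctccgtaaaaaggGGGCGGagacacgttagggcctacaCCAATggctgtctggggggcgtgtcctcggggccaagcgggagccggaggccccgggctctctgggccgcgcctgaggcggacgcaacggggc
Slc25a23: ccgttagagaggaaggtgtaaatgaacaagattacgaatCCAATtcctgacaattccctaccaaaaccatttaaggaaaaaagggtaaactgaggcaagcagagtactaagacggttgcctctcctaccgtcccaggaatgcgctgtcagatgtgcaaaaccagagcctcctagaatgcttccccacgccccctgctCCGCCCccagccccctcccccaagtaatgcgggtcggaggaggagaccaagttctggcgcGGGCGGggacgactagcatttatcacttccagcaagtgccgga
Timm17a: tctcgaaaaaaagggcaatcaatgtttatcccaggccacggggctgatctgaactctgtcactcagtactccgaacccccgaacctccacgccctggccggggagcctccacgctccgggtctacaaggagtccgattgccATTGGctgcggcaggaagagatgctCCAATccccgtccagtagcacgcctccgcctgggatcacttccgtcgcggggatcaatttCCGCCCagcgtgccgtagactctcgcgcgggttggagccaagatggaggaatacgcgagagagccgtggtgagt
Tomm20l: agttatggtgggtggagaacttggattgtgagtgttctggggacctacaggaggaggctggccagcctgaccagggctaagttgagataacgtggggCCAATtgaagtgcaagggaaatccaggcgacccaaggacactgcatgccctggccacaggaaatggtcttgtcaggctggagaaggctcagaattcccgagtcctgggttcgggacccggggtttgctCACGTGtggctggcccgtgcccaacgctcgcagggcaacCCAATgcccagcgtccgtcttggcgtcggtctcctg
Timm22: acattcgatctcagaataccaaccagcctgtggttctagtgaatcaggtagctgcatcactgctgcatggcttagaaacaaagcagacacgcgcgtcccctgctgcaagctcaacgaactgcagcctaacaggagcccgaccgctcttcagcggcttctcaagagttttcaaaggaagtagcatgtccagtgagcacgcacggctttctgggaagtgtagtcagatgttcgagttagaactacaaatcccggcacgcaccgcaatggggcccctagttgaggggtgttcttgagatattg
Slc25a33 and Tomm20l, which moved in opposite directions, each held an E-box shortly before the annotated start. Windows were found for 46 of the 57 members. An E-box was in the windows of 11 of these 46 genes (23.9%), against 11.8% of all tested genes with a window and 8.09% of all genes in the table of windows. By call, the 11 were 2 of 9 genes lower in TR (Slc25a15 and Slc25a33), 1 of 9 higher and 8 of 28 not called. GC boxes were in a window of 73.9% of these 46 genes and of 68.2% of tested genes with a window. CCAAT boxes were in 47.8% and 42.0%. The other motifs searched on both strands had few matches or a like share. The ETS motif CCGGAAG was in a window of 23.9% of these 46 genes and of 19.0% of tested genes with a window. The NRF1 core GCATGCGC was in 2.17% and 5.76%, the YY1 motif AAGATGGCG in 4.35% and 3.35%, and the CRE TGACGTCA in 4.35% and 3.56%. The ERR element TCAAGGTCA was in 1 member window (Timm8b; 0.322% of tested genes) and the D-box TTATGTAA in 0 (0.676%). A match describes the letters only.

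Among the 57 members, 11 were higher and 10 lower in TR lungs (limma on log2(CPM + 0.5), two-sided, Benjamini-Hochberg adjusted p under 0.05 over 14065 genes). That is 36.8% of the members, against 30.9% of all genes tested, so the members' count is near that background. By direction, 19.3% of members were higher and 17.5% lower, against 16.6% and 14.3% of all genes. Counts by role given below cover 4 to 10 genes each and are to be read beside these shares of all genes. TR and WT libraries did not overlap for 21 members (36.8%), against 31.2% of all genes. The median log2 fold change (TR minus WT) was 0.06 over the members and 0.01 over all genes, and the median size of a change was 0.17 and 0.19. Most changes were small: 6 called members differed by at least 0.5 on the log2 scale (10.5% of members, against 11.5% of all genes). Among the members described below, Slc25a33, Slc25a28 and Slc25a23 fell the most, and the largest rise was of Tomm20l.

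**Figure D1:**
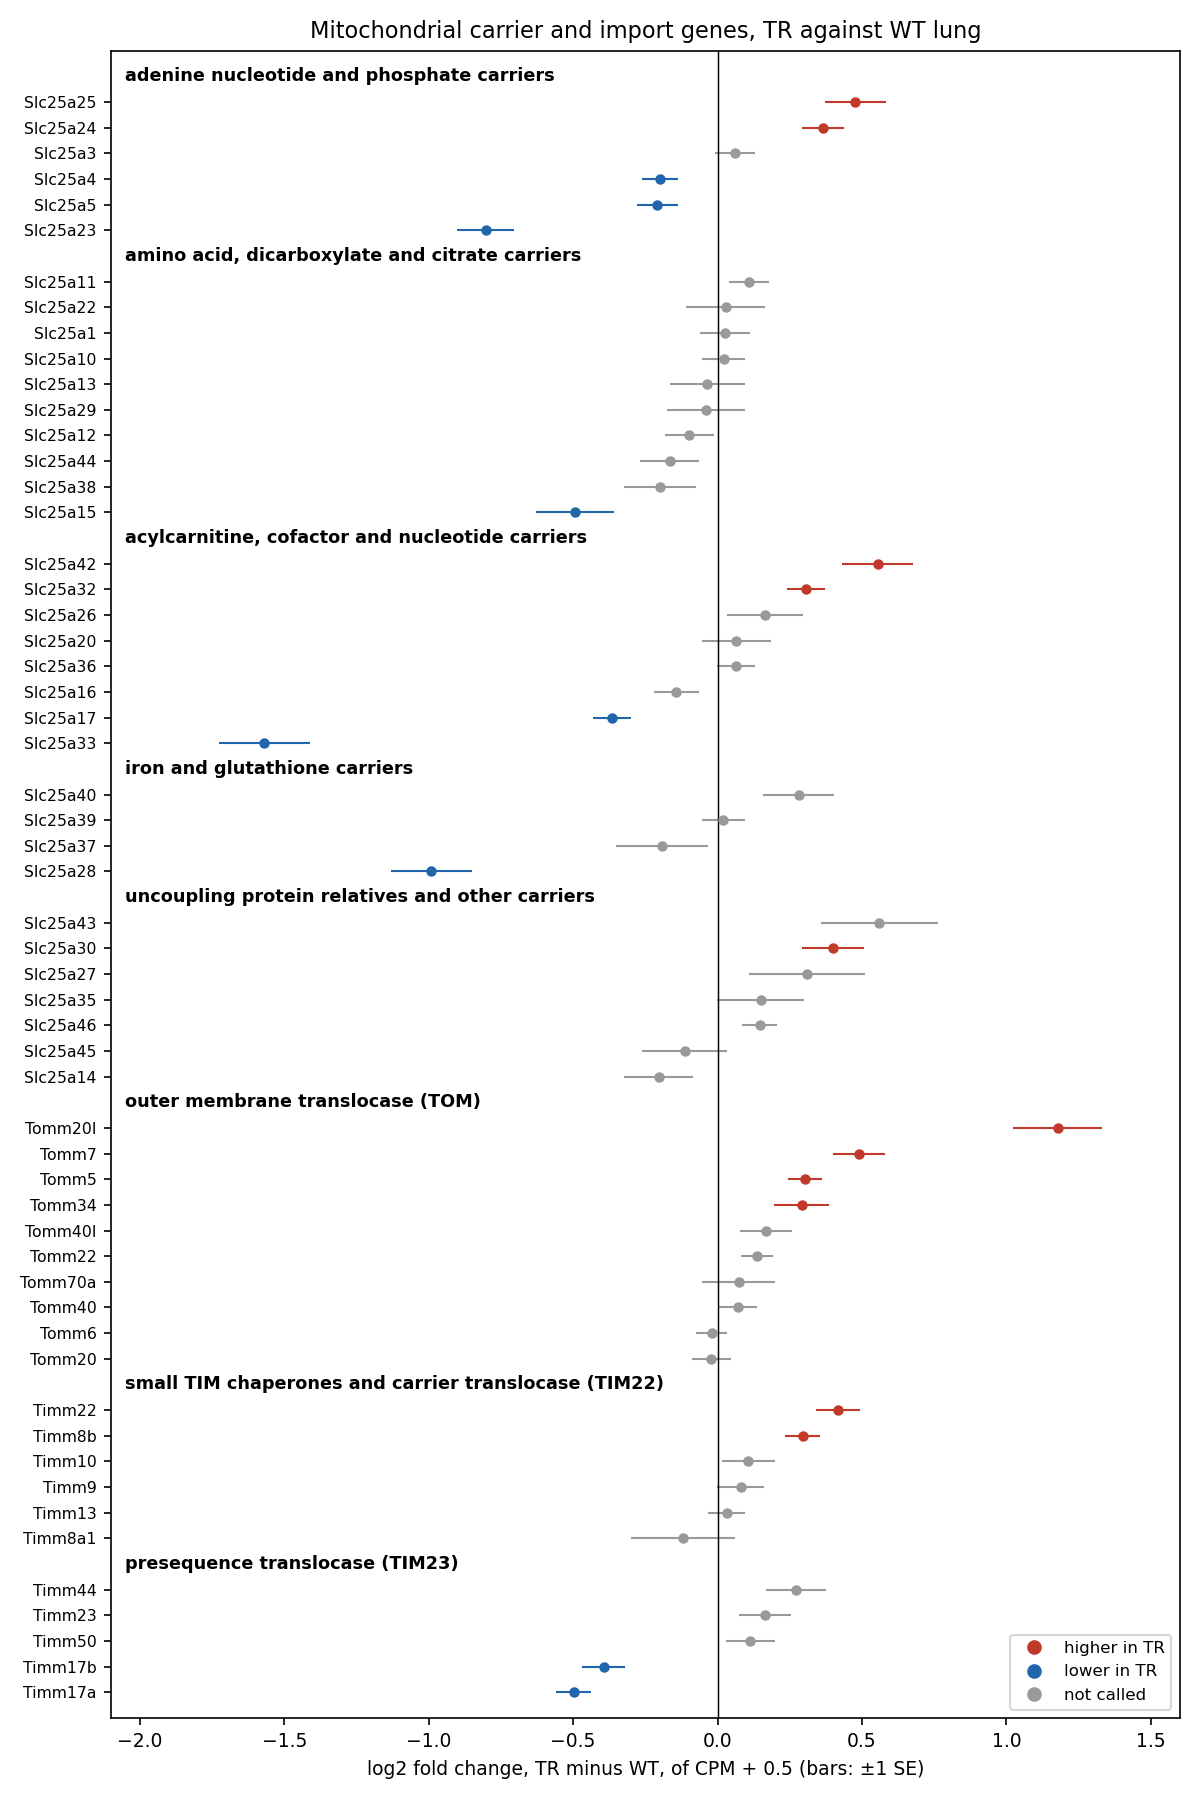
Log2 fold change, TR minus WT, of CPM + 0.5 for 56 of the 57 members by role (points, with bars of 1 SE, n = 4 libraries a genotype). Red points were higher and blue points lower in TR, and gray points were not called; called Tomm genes lie to the right of 0, and Slc25a33 lies farthest to the left at -1.57.

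Summed over all members, these transcripts made up 0.391% of reads in TR and 0.366% in WT. The sum was 3802 to 4016 CPM in TR and 3615 to 3735 CPM in WT, so every TR library lay above every WT library. The mean sums differed by 254 CPM (TR minus WT). Most of it lay in the Tomm genes, which summed to 1584 to 1739 CPM in TR and 1394 to 1449.9 CPM in WT. Among them Tomm7, the most abundant member, averaged 755 ± 78.3 CPM in TR and 537 ± 55.0 CPM in WT. Without Tomm7, Tomm genes summed to 884 to 954 CPM in TR and 849.5 to 926 CPM in WT, with overlap. Without Tomm6 and Tomm7, all other members summed to 2589 to 2718 CPM in TR and 2553 to 2678 CPM in WT, also with overlap. Most of the difference in the sum of all members thus lay in Tomm7, whose level is uncertain, as given below. The 36 carriers summed to 1378 to 1509.8 CPM in TR and 1459 to 1564 CPM in WT and the 11 Timm genes to 729 to 816 CPM in TR and 737 to 745 CPM in WT, and both ranges overlapped between genotypes.

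Levels spanned from 1.22 to 646 CPM. Tomm7 averaged 646 CPM over the 8 libraries, Tomm6 518 CPM and the phosphate carrier gene Slc25a3 351 CPM. Timm13 and Timm8b, of the small TIM chaperones, followed at 206 and 162 CPM. The next genes, Slc25a4, Slc25a39 and Slc25a5, had ranges over the 8 libraries that overlapped, at means of 142, 138 and 138 CPM, so their order is within the spread. The median member stood at 24.8 CPM.

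**Figure D2:**
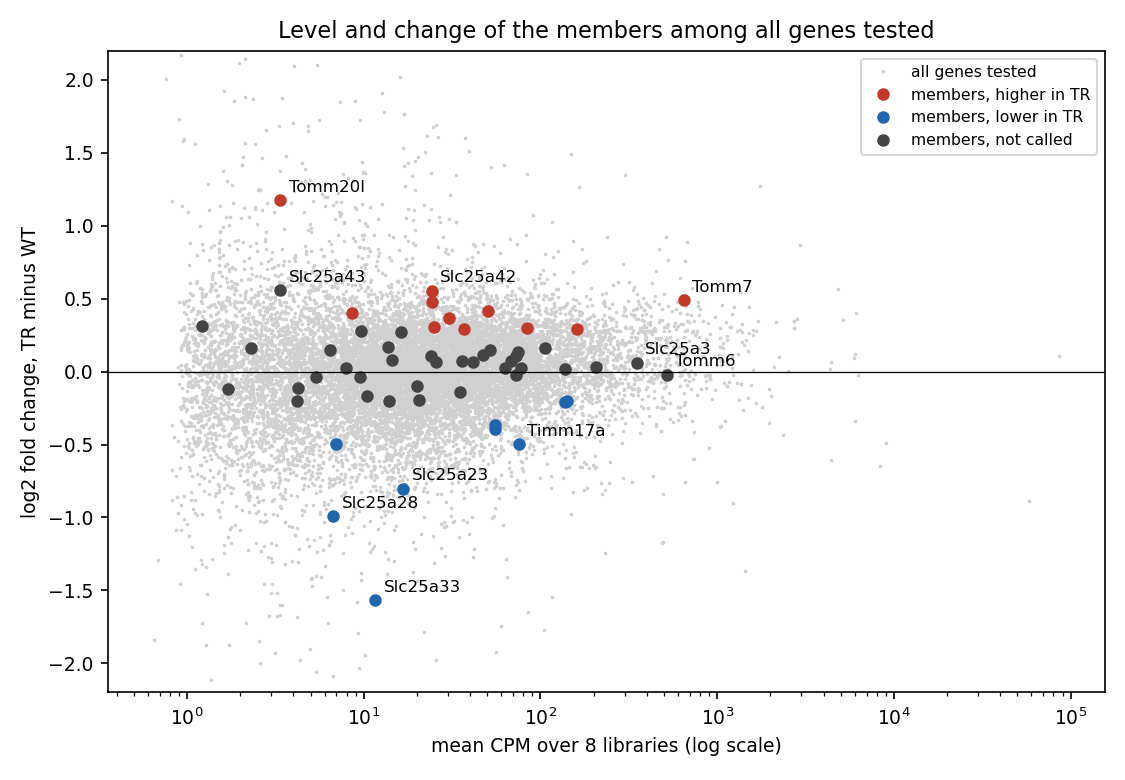
Mean CPM over the 8 libraries (log scale) against the log2 fold change, TR minus WT, for 56 members (large points) and all genes tested (gray dots). The members lie within the cloud of all genes at each level; 73 of the 14065 genes have a change beyond the plotted range of ±2.2.

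The carriers of adenine nucleotides and phosphate moved both ways: 2 of 6 rose and 3 fell. Slc25a23 stood at 12.8, 10.01, 12.1 and 13.4 CPM in TR replicates 1 to 4, against 21.7, 21.7, 19.8 and 22.4 CPM in WT replicates 1 to 4. Its product is a calcium-regulated carrier of ATP-magnesium against phosphate, and no TR library reached the lowest WT library. It fell by 0.80 in log2 CPM, with an SE of 0.0982 (limma adjusted p = 2.05e-04). Slc25a24 stood at 33.1, 35.0, 35.3 and 34.1 CPM in TR replicates 1 to 4, against 24.0, 26.7, 26.9 and 29.0 CPM in WT replicates 1 to 4, and this relative of the same function was higher in every TR library. It rose by 0.37 in log2 CPM, with an SE of 0.0728 (limma adjusted p = 0.0037). Slc25a25, the remaining ATP-magnesium carrier of the list, rose to 28.2 ± 2.30 CPM in TR, against 20.3 ± 3.12 CPM in WT (adjusted p = 0.00668).

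The ADP/ATP carriers, which export the ATP made by mitochondria, were slightly lower. Slc25a4 stood at 130.0, 145, 133 and 121 CPM in TR replicates 1 to 4, against 151, 156, 151 and 148 CPM in WT replicates 1 to 4, with no overlap between genotypes. It fell by 0.20 in log2 CPM, with an SE of 0.0626 (limma adjusted p = 0.0319). Slc25a5 stood at 127, 120.2, 139.8 and 124 CPM in TR replicates 1 to 4, against 136, 146, 163 and 146 CPM in WT replicates 1 to 4, and TR replicate 3 lay inside the WT range. Slc25a5 fell by 0.21 in log2 CPM, with an SE of 0.0715 (limma adjusted p = 0.0463). Both calls were marginal: that of Slc25a4 ended without any library except TR replicate 2 (adjusted p up to 0.0818), and that of Slc25a5 ended without any except TR replicate 3 or WT replicate 1 (up to 0.126). Slc25a4 is the main form of heart muscle. A lung sample can hold cardiac muscle through the muscle sleeve of pulmonary veins. The 9 cardiac muscle markers summed to 344 to 553 CPM in TR and 399 to 622 CPM in WT. They did not all move alike: of the 8 tested, 1 was higher, 2 were lower and 5 were not called. Myh6 was higher (48.1 ± 9.94 CPM in TR and 28.2 ± 6.84 CPM in WT, limma adjusted p = 0.00835). Nppa was lower, at 0 to 0.140 CPM in TR and 32.2 to 90.0 CPM in WT. Sln was lower too (36.3 ± 7.42 CPM in TR and 53.3 ± 11.8 CPM in WT), a call that ended with the replicate block or some libraries left out. Myl7, the most abundant, was not called, at 175 to 299 CPM in TR and 165 to 255 CPM in WT. None of the 9 was at 0 in every library. Of 6 skeletal muscle markers 2 had a row. Ckm was lower, with overlapping groups (4.72 ± 0.963 CPM in TR and 8.67 ± 2.80 CPM in WT, limma adjusted p = 0.0151). Tnnt3 was not called (2.36 ± 1.43 CPM in TR and 2.84 ± 0.285 CPM in WT). The part of cardiac or skeletal muscle in the Slc25a4 result was not tested. Slc25a3, the phosphate carrier, averaged 359 ± 25.4 CPM in TR and 344 ± 24.2 CPM in WT (log2 fold change 0.06, SE 0.0700, limma adjusted p = 0.537).

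Of 10 carriers of amino acids, dicarboxylates and citrate, 1 passed the test. Slc25a15 stood at 6.69, 6.76, 4.42 and 5.07 CPM in TR replicates 1 to 4, against 7.78, 7.80, 8.55 and 8.53 CPM in WT replicates 1 to 4. This ornithine carrier, part of the urea cycle in liver, was lower in every TR library and fell by 0.49 in log2 CPM, with an SE of 0.135 (limma adjusted p = 0.0174). The other 9 had log2 fold changes between -0.20 and 0.11 and overlapping groups. Slc25a10, the dicarboxylate carrier and the most abundant of them, averaged 78.2 ± 7.89 CPM in TR and 76.7 ± 1.25 CPM in WT. Slc25a1, the citrate carrier that feeds lipid synthesis in the cytosol, averaged 63.4 ± 7.48 CPM in TR and 62.1 ± 4.10 CPM in WT, and Slc25a11, the oxoglutarate carrier, 75.7 ± 4.47 CPM in TR and 70.1 ± 4.34 CPM in WT. The aspartate-glutamate carriers of the malate-aspartate shuttle were at 19.3 ± 1.81 CPM in TR and 20.6 ± 0.745 CPM in WT for Slc25a12 and at 5.34 ± 0.959 CPM in TR and 5.45 ± 0.544 CPM in WT for Slc25a13. The glutamate carrier Slc25a22, the basic amino acid carrier Slc25a29, the glycine carrier Slc25a38 and Slc25a44, a carrier of branched-chain amino acids, were the remaining genes.

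The carriers of acylcarnitine, cofactors and nucleotides moved both ways, with 3 of 9 lower and 2 higher. Slc25a33 stood at 6.89, 6.49, 4.76 and 4.38 CPM in TR replicates 1 to 4, against 14.5, 15.97, 19.0 and 20.9 CPM in WT replicates 1 to 4. Its product carries pyrimidine nucleotides, and the highest TR library was below 14.5 CPM, the lowest WT value. It fell by 1.57 in log2 CPM, with an SE of 0.158 (limma adjusted p = 5.11e-05), a ratio of WT to TR means of 3.12.

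Slc25a17, a carrier of the peroxisome rather than the mitochondrion, was at 49.3, 48.8, 48.6 and 46.7 CPM in TR replicates 1 to 4, against 61.5, 65.6, 66.05 and 56.9 CPM in WT replicates 1 to 4. TR libraries were close together and all lower, and the gene fell by 0.37 in log2 CPM, with an SE of 0.0655 (limma adjusted p = 0.00211). Slc25a42 stood at 22.8, 31.3, 33.4 and 28.7 CPM in TR replicates 1 to 4, against 21.5, 20.3, 19.9 and 16.3 CPM in WT replicates 1 to 4. This coenzyme A carrier was higher in every TR library, with TR replicate 1 the lowest of them, and rose by 0.55 in log2 CPM, with an SE of 0.123 (limma adjusted p = 0.00659). Slc25a32, the carrier of folate and FAD, rose to 27.5 ± 0.665 CPM in TR, against 22.2 ± 0.791 CPM in WT (adjusted p = 0.0053). The remaining 4 were not called. Among them, Slc25a36, another pyrimidine nucleotide carrier, averaged 42.2 ± 2.56 CPM in TR and 40.3 ± 1.22 CPM in WT, and Slc25a20, the carnitine-acylcarnitine carrier of fatty acid oxidation, 26.2 ± 3.59 CPM in TR and 25.1 ± 3.40 CPM in WT. Slc25a16 and the S-adenosylmethionine carrier Slc25a26 had log2 fold changes of -0.14 and 0.16.

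Of the iron and glutathione carriers, 1 of 4 changed. Slc25a28 stood at 6.03, 3.92, 3.86 and 3.69 CPM in TR replicates 1 to 4, against 9.03, 9.14, 8.60 and 9.36 CPM in WT replicates 1 to 4. Slc25a28 encodes mitoferrin 2, which brings iron to heme and iron-sulfur cluster synthesis in many tissues, and TR replicate 1 held its highest TR value. It fell by 0.99 in log2 CPM, with an SE of 0.141 (limma adjusted p = 5.39e-04). Mitoferrin 1, Slc25a37, which serves the red cell lineage, was at 25.2, 17.3, 13.7 and 20.9 CPM in TR replicates 1 to 4, against 22.5, 18.7, 21.6 and 23.8 CPM in WT replicates 1 to 4, with overlapping groups (log2 fold change -0.19, SE 0.159, limma adjusted p = 0.383). The 7 red cell markers summed to 7518 to 11362 CPM in TR and 8825 to 17354 CPM in WT, also overlapping. Slc25a39, a carrier of glutathione, averaged 139 ± 12.3 CPM in TR and 137 ± 8.27 CPM in WT. Its relative Slc25a40 averaged 10.7 ± 1.64 CPM in TR and 8.67 ± 0.957 CPM in WT (adjusted p = 0.107) and passed the test without TR replicate 1 (log2 fold change 0.38, adjusted p = 0.0295).

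Among 7 relatives of the uncoupling proteins and other carriers, 1 rose. Slc25a30, a carrier described in kidney mitochondria, was at 8.61, 9.53, 10.6 and 10.7 CPM in TR replicates 1 to 4, against 7.06, 6.67, 7.22 and 8.46 CPM in WT replicates 1 to 4. The lowest TR library lay just above the highest WT library, and the gene rose by 0.40 in log2 CPM, with an SE of 0.107 (limma adjusted p = 0.016), a call that ended without WT replicate 2 (adjusted p = 0.0501). Slc25a43, a carrier of unknown substrate, was at 2.65, 4.67, 4.90 and 4.30 CPM in TR replicates 1 to 4, against 3.11, 2.85, 1.73 and 2.82 CPM in WT replicates 1 to 4. TR replicate 1 lay inside the WT range and the other TR libraries lay above it; the gene missed the threshold (log2 fold change 0.56, SE 0.202, limma adjusted p = 0.0563) and passed it with DESeq2 (adjusted p = 0.0452) or quantile normalization (0.0383) on all 8 libraries and without TR replicate 1 (0.00981). Slc25a46, an outer membrane protein linked to mitochondrial shape and the most abundant of this group, stood at 53.0 to 57.1 CPM in TR and 46.5 to 51.7 CPM in WT, without overlap but short of the threshold (log2 fold change 0.15, SE 0.0621, limma adjusted p = 0.0976). The uncoupling protein relatives Slc25a14 and Slc25a27 and the carriers Slc25a35 and Slc25a45 were not called, with log2 fold changes between -0.20 (Slc25a14) and 0.31 (Slc25a27).

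**Figure D3:**
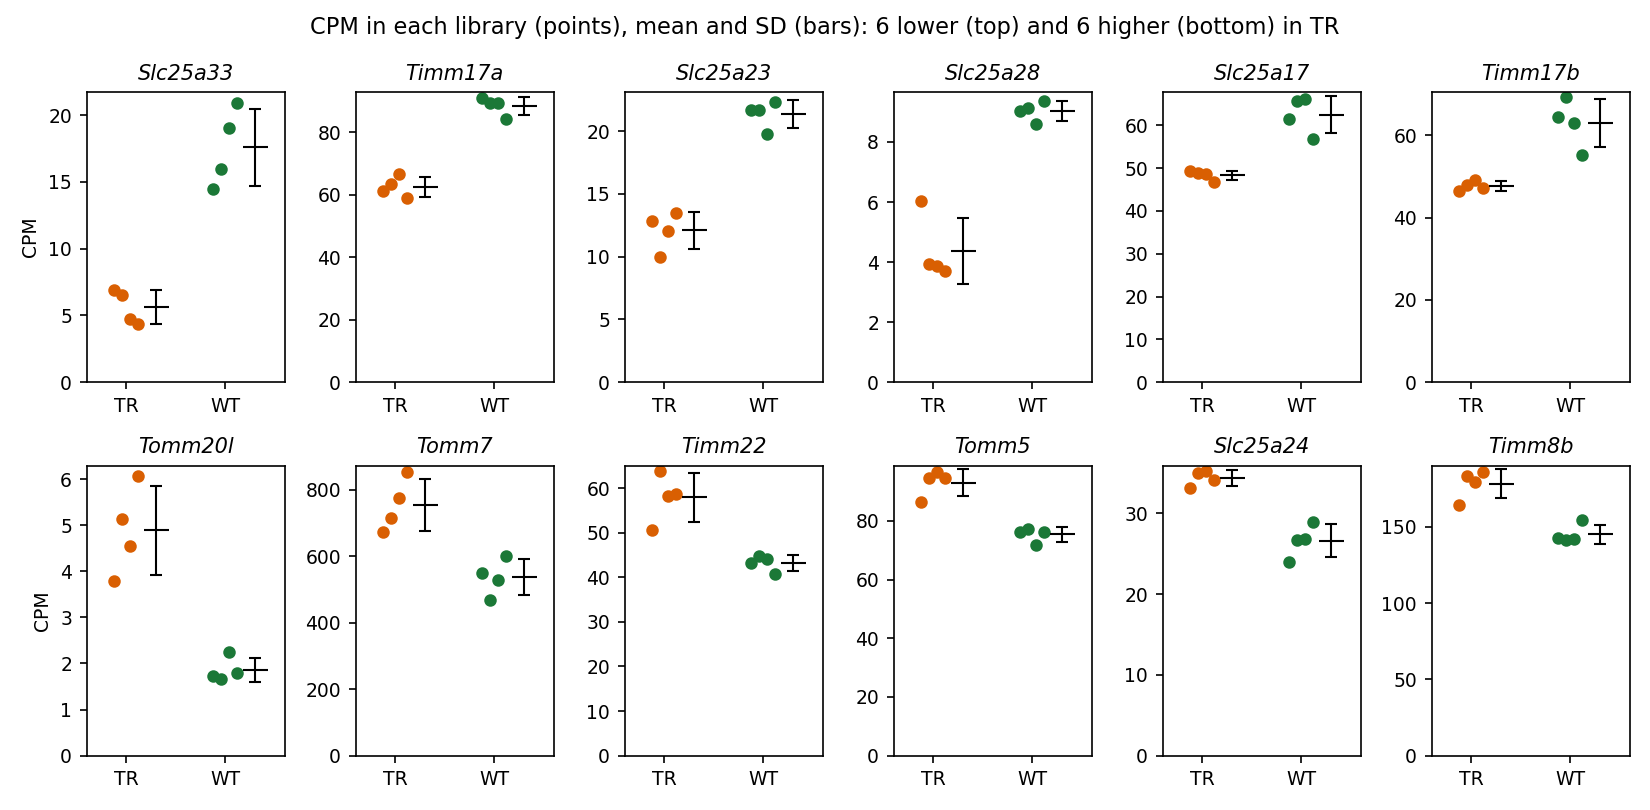
CPM in each library (points, 4 a genotype), with the mean and SD beside them, for the 6 members lower in TR (top) and the 6 higher (bottom) with the smallest adjusted p among those plotted. In all 12 panels the TR and WT points do not overlap, and the axes start at 0.

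Of the 10 Tomm genes, 4 rose and 0 fell with limma (40% and 0%, against 16.6% and 14.3% of all genes). In a group of 10 genes, a count of 0 lower is near the share of all genes. Likewise, 0 of the 10 was lower with edgeR or DESeq2, and 0 was lower at an unadjusted limma p under 0.05. Among the 4, Tomm34 encodes a cytosolic protein and not a TOM subunit, and its call did not hold in 5 of 8 fits with a library left out; the others were Tomm20l, Tomm7 and Tomm5. Tomm20l stood at 3.78, 5.14, 4.55 and 6.07 CPM in TR replicates 1 to 4, against 1.73, 1.67, 2.25 and 1.80 CPM in WT replicates 1 to 4. Tomm20l, a relative of the import receptor Tomm20, was the least abundant Tomm gene and rose by 1.18 in log2 CPM, with an SE of 0.153 (limma adjusted p = 3.03e-04), a ratio of TR to WT means of 2.62. Tomm20 itself was at 63.8, 73.6, 74.5 and 76.7 CPM in TR replicates 1 to 4, against 72.1, 75.0, 72.2 and 73.1 CPM in WT replicates 1 to 4, and all WT values lay inside the TR range (log2 fold change -0.02, SE 0.0675, limma adjusted p = 0.824).

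Of the 3 small subunits that steady the TOM channel, Tomm7 and Tomm5 rose. Tomm7 stood at 673, 717, 776 and 854 CPM in TR replicates 1 to 4, against 551, 468, 530.1 and 600.4 CPM in WT replicates 1 to 4. Each TR library was above each WT library, and the gene rose by 0.49 in log2 CPM, with an SE of 0.0901 (limma adjusted p = 0.00246). Tomm5 stood at 86.4, 94.7, 96.5 and 94.5 CPM in TR replicates 1 to 4, against 76.3, 77.2, 71.8 and 76.1 CPM in WT replicates 1 to 4, again without overlap, and it rose by 0.30 in log2 CPM, with an SE of 0.0592 (limma adjusted p = 0.00344). Tomm6, at 515 ± 17.5 CPM in TR and 522 ± 20.4 CPM in WT, had overlapping groups (log2 fold change -0.02, SE 0.0541, limma adjusted p = 0.798). Near-identical 5′ ends of other genes are annotated for Tomm7 and Tomm5, and no label or file header says how reads were divided between copies, so these values are uncertain.

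Tomm34, a cytosolic cochaperone of import, stood at 36.2 to 45.6 CPM in TR and 28.3 to 36.7 CPM in WT, and 1 TR library lay inside the WT range. It rose by 0.29 in log2 CPM, with an SE of 0.0950 (limma adjusted p = 0.0377), and the call ended without TR replicate 2 or 3 or WT replicate 1, 2 or 4 (adjusted p up to 0.103). The receptor gene Tomm22 was at 75.0 to 79.4 CPM in TR and 69.5 to 72.5 CPM in WT, without overlap but short of the threshold (log2 fold change 0.14, SE 0.0542, limma adjusted p = 0.0764). The channel gene Tomm40 averaged 36.9 ± 2.19 CPM in TR and 35.1 ± 0.383 CPM in WT, its relative Tomm40l 14.6 ± 1.38 CPM in TR and 12.9 ± 0.716 CPM in WT and the receptor gene Tomm70a 69.6 ± 10.9 CPM in TR and 65.95 ± 8.81 CPM in WT, each with overlapping groups.

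Of the small TIM chaperones and the carrier translocase, 2 of 6 rose. Timm22 stood at 50.7, 63.9, 58.3 and 58.8 CPM in TR replicates 1 to 4, against 43.1, 44.7, 44.0 and 40.6 CPM in WT replicates 1 to 4. Timm22 encodes the channel that inserts the SLC25 carriers, and was higher in every TR library; it rose by 0.42 in log2 CPM, with an SE of 0.0768 (limma adjusted p = 0.00247). Timm8b stood at 165, 184, 179 and 186 CPM in TR replicates 1 to 4, against 143, 141, 142 and 154 CPM in WT replicates 1 to 4. This chaperone gene rose by 0.29 in log2 CPM, with an SE of 0.0598 (limma adjusted p = 0.00408), with TR replicate 1 the lowest of the TR libraries. Timm13, which works with it, averaged 209 ± 15.5 CPM in TR and 204 ± 7.61 CPM in WT (adjusted p = 0.739). The chaperone pair Timm9 and Timm10, which carries the carriers themselves across the space between the membranes, were also measured: Timm9 averaged 14.9 ± 0.736 CPM in TR and 14.0 ± 0.912 CPM in WT, and Timm10 averaged 24.9 ± 2.37 CPM in TR and 23.1 ± 2.11 CPM in WT. Neither was called, nor was Timm8a1.

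In the TIM23 complex 2 of 5 genes fell, both of them forms of the same subunit. Timm17a stood at 61.2, 63.5, 66.5 and 58.9 CPM in TR replicates 1 to 4, against 90.8, 89.3, 89.3 and 84.3 CPM in WT replicates 1 to 4. Timm17b stood at 46.5, 47.9, 49.2 and 47.1 CPM in TR replicates 1 to 4, against 64.4, 69.4, 63.0 and 55.2 CPM in WT replicates 1 to 4. For each form all TR libraries were lower than all WT libraries. Timm17a fell by 0.50 in log2 CPM, with an SE of 0.0603 (limma adjusted p = 1.91e-04), and Timm17b fell by 0.39 in log2 CPM, with an SE of 0.0739 (limma adjusted p = 0.00271). The summed level of both was 110.2 ± 4.33 CPM in TR and 151 ± 8.36 CPM in WT.

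The other TIM23 genes were not called. Timm23, the channel, averaged 112 ± 15.3 CPM in TR and 99.5 ± 6.72 CPM in WT (log2 fold change 0.16, SE 0.0911, limma adjusted p = 0.192); its listed near-identical copy Gm10273 averaged 6.04 ± 0.920 CPM in TR and 3.92 ± 0.431 CPM in WT (adjusted p = 0.00831), and Timm23 summed with its listed copies was at 119 ± 14.7 CPM in TR and 104 ± 6.52 CPM in WT. The receptor gene Timm50 averaged 49.2 ± 5.01 CPM in TR and 45.3 ± 2.97 CPM in WT. Timm44, which tethers the import motor, averaged 17.8 ± 2.15 CPM in TR and 14.6 ± 1.22 CPM in WT (log2 fold change 0.27, SE 0.103, limma adjusted p = 0.0655); it passed the test without TR replicate 1 (adjusted p = 0.0152), with quantile normalization (0.0419) and with the replicate number as a block (0.045).

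Shares within pairs of related genes, chosen after values were seen, are given without a test. Slc25a33 made up 9.84% to 14.6% in TR and 26.5% to 33.9% in WT of its sum with Slc25a36. Slc25a28 made up 15.0% to 22.0% in TR and 28.2% to 32.9% in WT of both mitoferrins, and Slc25a23 22.2% to 28.3% in TR and 42.4% to 47.5% in WT of its sum with Slc25a24. The sum of Slc25a23 and Slc25a24 was 45.0 to 47.6 CPM in TR and 45.7 to 51.4 CPM in WT. By contrast, Slc25a4 made up 48.7% to 54.6% in TR and 48.1% to 52.7% in WT of the ADP/ATP carriers, and Timm17a 55.5% to 57.5% in TR and 56.3% to 60.4% in WT of the Tim17 forms, both overlapping.

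**Figure D4:**
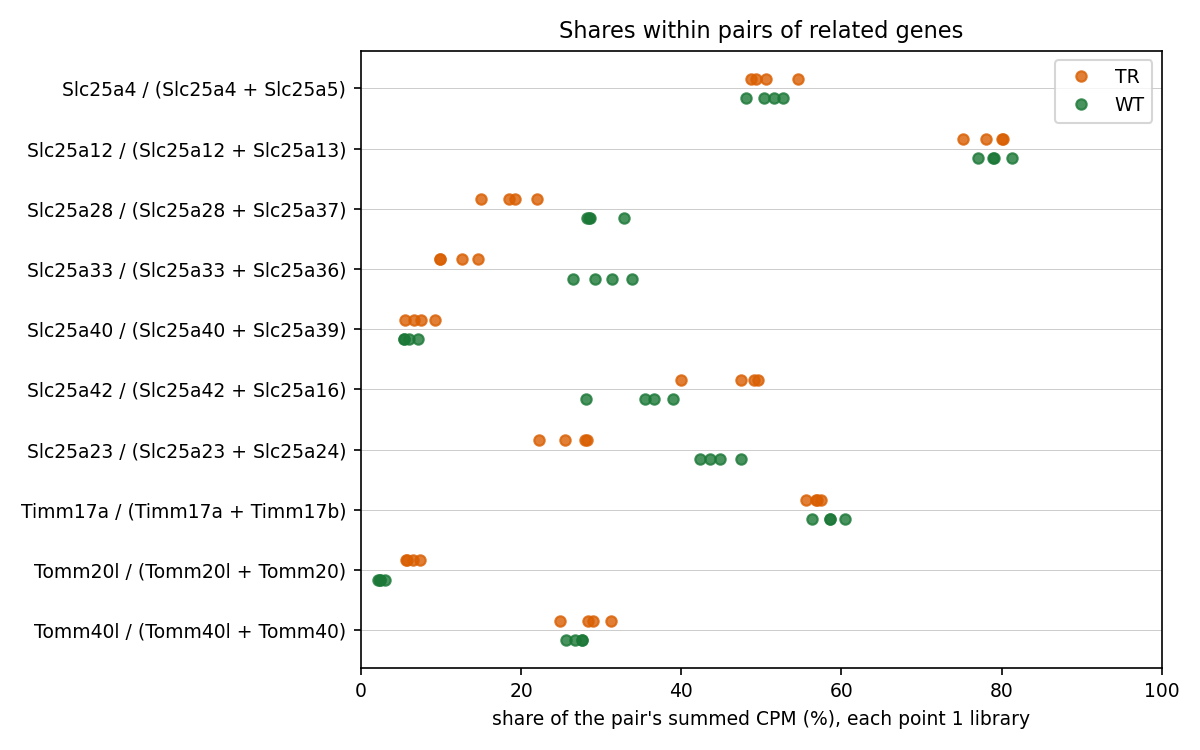
Share of the first gene in the summed CPM of 10 pairs of related genes, in % (each point 1 library; TR above WT). The genotypes part for the pairs led by Slc25a28, Slc25a33, Slc25a42, Slc25a23 and Tomm20l, and overlap for the other 5 pairs.

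Rows under older symbols, which the choice by symbol did not take, held 5 genes of the same families by identifier. Fxc1, now Timm10b, a small TIM protein of the TIM22 complex, averaged 268 ± 15.0 CPM in TR and 193 ± 6.86 CPM in WT and rose by 0.47 in log2 CPM, with an SE of 0.0588 (limma adjusted p = 2.40e-04). Mcart1, now Slc25a51, the NAD carrier, averaged 78.1 ± 2.23 CPM in TR and 93.8 ± 2.43 CPM in WT and fell by 0.26 in log2 CPM, with an SE of 0.0541 (limma adjusted p = 0.00456). The rows of Timm21, Timm29 and Slc25a53 were not called.

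Other genes of protein import that passed the test were mostly higher: 9 of 29 were higher and 1 lower (31.0% and 3.45%, against 16.6% and 14.3% of all genes). Romo1, an inner membrane protein of TIM23, rose to 305 ± 14.5 CPM in TR, against 229 ± 17.0 CPM in WT (adjusted p = 0.00111), and Oxa1l, the insertase for proteins made in the matrix, to 60.8 ± 2.34 CPM in TR, against 47.0 ± 1.84 CPM in WT (adjusted p = 0.00133). Motor parts Pam16 (45.3 ± 4.11 CPM in TR and 35.5 ± 1.72 CPM in WT) and Dnajc19 (169 ± 3.47 CPM in TR and 144 ± 7.46 CPM in WT) rose too. The motor cochaperones Dnajc15 (98.1 ± 8.49 CPM in TR and 83.5 ± 1.18 CPM in WT) and Grpel2 (38.4 ± 2.02 CPM in TR and 32.6 ± 1.71 CPM in WT), the cytosolic cochaperone Dnaja1 (427 ± 36.4 CPM in TR and 354 ± 25.1 CPM in WT), Dnlz, a partner of the motor chaperone (77.3 ± 2.16 CPM in TR and 69.4 ± 1.52 CPM in WT), and Chchd4, which folds proteins between the membranes (41.1 ± 2.77 CPM in TR and 35.6 ± 1.68 CPM in WT), were also called higher. These 5 lost the call when at least 1 library was left out. Dnlz and Chchd4 kept it under 4 of 17 alternatives, losing it also with edgeR, DESeq2, both other scalings and the replicate block; Dnajc15 lost it with both other scalings (median-ratio and quantile) and Dnaja1 with quantile normalization. Agk, a kinase that is also part of TIM22, fell to 5.25 ± 0.483 CPM in TR, against 6.88 ± 0.366 CPM in WT (adjusted p = 0.0193), a call that ended without WT replicate 2 or 3. Hspa9, the motor chaperone, averaged 71.5 ± 10.4 CPM in TR and 82.0 ± 6.54 CPM in WT (adjusted p = 0.153), and Samm50, which inserts outer membrane barrels, 78.0 ± 2.63 CPM in TR and 77.9 ± 2.45 CPM in WT.

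Of 17 other transporters of mitochondrial membranes with a row, 4 were higher and 4 lower (23.5% each, against 16.6% higher and 14.3% lower of all genes). Sfxn2, a sideroflexin, fell to 4.04 ± 0.372 CPM in TR, against 6.85 ± 0.493 CPM in WT (adjusted p = 8.41e-04). Sfxn1, the serine carrier, fell to 12.6 ± 0.880 CPM in TR, against 15.7 ± 1.13 CPM in WT, the outer membrane channel gene Vdac1 to 90.1 ± 1.32 CPM in TR, against 106 ± 7.64 CPM in WT, and Mtch1, an SLC25 relative of the outer membrane, to 146 ± 18.03 CPM in TR, against 174 ± 9.75 CPM in WT. Vdac3 rose to 192 ± 7.65 CPM in TR, against 161 ± 1.37 CPM in WT (adjusted p = 0.00466), the ATP-binding cassette transporter gene Abcb8 to 13.6 ± 1.06 CPM in TR, against 10.3 ± 1.16 CPM in WT, and the uncoupling protein gene Ucp3 to 1.93 ± 0.306 CPM in TR, against 1.26 ± 0.0356 CPM in WT. Calls of Sfxn1, Vdac1, Mtch1 and Ucp3 each ended with at least 1 library left out, and that of Ucp3 also with DESeq2 on all 8. Of 4 brown adipocyte markers 2 had a row. Cox8b averaged 56.3 ± 6.07 CPM in TR and 31.8 ± 5.22 CPM in WT (adjusted p = 4.43e-04). Cidea averaged 2.44 ± 0.710 CPM in TR and 2.26 ± 0.529 CPM in WT (adjusted p = 0.782). The part of brown adipocytes or skeletal muscle in the Ucp3 result was not tested. Ucp2, the abundant uncoupling protein gene of these lungs, averaged 128 ± 8.87 CPM in TR and 121 ± 5.21 CPM in WT (adjusted p = 0.332).

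TR replicate 1 was the TR library nearest to the WT mean for 11 of the 21 called members, and TR replicates 2, 3 and 4 were for 3, 4 and 3. Without TR replicate 1, 14 members were higher and 8 lower. The start regions of Slc25a23 and Tomm34 overlap those of Crb3 and Stk4 on the opposite strand in GENCODE M21, and no label or header says whether counting used strand. Crb3 averaged 67.8 ± 5.70 CPM in TR and 74.8 ± 5.85 CPM in WT and Stk4 85.7 ± 6.22 CPM in TR and 83.3 ± 2.54 CPM in WT, and neither was called. Tomm20 and SNORA14, which lies inside it, had identical values in all 8 libraries, and a listed near-identical copy, Gm14494, averaged 65.3 ± 5.38 CPM in TR and 62.3 ± 2.06 CPM in WT, so the Tomm20 level is uncertain. Slc25a5 and Slc25a36 also have a listed copy, each averaging under 1 CPM in both genotypes.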

How the data were processed

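Capped cDNA of total RNA was selected, barcoded and sequenced from 1 end on a NextSeq instrument in 1 pool, per the labels' protocols. BWA 0.7.12-r1039 and HISAT2 2.0.5 appear in the submitters' processing notes, with edgeR and the build mm9, without role or order; for gene annotation and strand no source used here gives a setting. The authors deposited CPM per gene, scaled to the library total only. In each library the CPM were whole multiples of 1 step, so reads were recovered from the values (100% whole within 0.1 reads). Counting error is thus small for most members; no molecular identifiers are mentioned, so reads may repeat molecules.

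The 14065 genes that reached 1 CPM in 4 or more libraries were fitted with limma 3.58.1 in R 4.3.3 on log2(CPM + 0.5), with a variance trend and genotype as the only term. Fold changes on that scale understate changes of low genes. All adjusted p are from this fit unless another tool is named. Alternatives tried were edgeR 4.0.16 and DESeq2 1.42.0 on recovered reads, 2 other scalings, 2 other pseudocounts, 2 other filters, a replicate block and leaving out each library. The fit was tested on simulated data with known changes, in fewer genes than were called here. Those changes were larger than most changes of the members, so small changes were not covered.

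The named genes were the called members, the most abundant member of each role and those next to the CPM limit; other members were added to account for all, and Slc25a43, Slc25a40, Timm44 and the pairs were chosen after their values were seen. The members, roles, pathway lists and markers were chosen with earlier results of these data known. Copies were sought with blastn 2.17.0 in the first 200 nt of GENCODE M21 transcripts (at least 97% identity over at least 75 nt): 8 members have one, and for 4 it is listed. Another listed gene overlaps 15 members. The series' design gives 4 mice a genotype. Counts cover all members and listed genes, but 2 called genes among them are not reported here.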

Additional observations from a re-analysis of the deposited data

Results flagged for a closer look

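Of 114 groups of 4 libraries (57 members in each genotype), 6 held 1 library far from the other 3, with a gap to its neighbour past Dixon's 95% limit for 4 values. Chance flags about 1 group in 20. Slc25a22 was at 6.22 CPM in TR replicate 4, below 8.52 to 8.81 CPM in the other TR libraries. Slc25a27 was at 1.76 CPM in TR replicate 2, above 1.23 to 1.31 CPM in the other TR libraries. Slc25a28 was at 6.03 CPM in TR replicate 1, above 3.69 to 3.92 CPM in the other TR libraries. Timm8b was at 154 CPM in WT replicate 4, above 141 to 143 CPM in the other WT libraries. Tomm22 was at 75.0 CPM in TR replicate 1, below 78.7 to 79.4 CPM in the other TR libraries. Tomm70a was at 53.5 CPM in TR replicate 4, below 73.0 to 76.3 CPM in the other TR libraries. Of these genes, Slc25a28 and Timm8b were called, and both kept the call under all 17 alternatives. TR replicate 1 and TR replicate 4 held 2 flags each.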

How the results depend on the processing

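Under all 17 alternatives, the members called higher numbered 9 to 14 and those called lower 8 to 10, against 11 and 10 as reported. Leaving out 1 library gave 9 to 14 and 8 to 9. The median log2 fold change of the members ranged from 0.028 to 0.074, and the difference of the summed CPM, TR minus WT, from 203 to 292 CPM against 254 CPM. Over all genes, 1741 to 2387 were called higher and 1552 to 2374 lower, with 2247 and 2326 by edgeR. Of the 21 called members 17 kept the call under all 17 alternatives, and none changed direction. Slc25a4, Slc25a5, Tomm34 and Slc25a30 lost it when single libraries were left out, which leaves fewer samples; Slc25a40, Slc25a43 and Timm44 gained it under 1 or 3 settings. Deviations of libraries with the same replicate number had r of -0.0029 to 0.065, inside the range of the other pairs (-0.134 to 0.120). With 4 libraries a genotype, these values cannot show whether same-numbered libraries share a litter or a batch. With the replicate block, 22 members were called in place of 21, with all 21 among them (12 higher and 10 lower). Members that were not called and lie near 0 changed sign in 31 values, under quantile normalization or with a library left out; the cause was not tested. With quantile normalization, the log2 fold change was -0.0066 for Slc25a1, -0.012 for Slc25a10, 0.0048 for Slc25a13, -0.039 for Slc25a3, -0.027 for Slc25a39 and -0.015 for Timm13. With single libraries left out, it ranged from -0.048 to 0.072 for Slc25a1, from -0.031 to 0.081 for Slc25a10, from -0.14 to 0.017 for Slc25a13, from -0.036 to 0.12 for Slc25a20, from -0.025 to 0.14 for Slc25a22, from -0.13 to 0.069 for Slc25a29, from -0.024 to 0.071 for Slc25a39, from -0.00099 to 0.082 for Timm13, from -0.20 to 0.016 for Timm8a1, from -0.053 to 0.035 for Tomm20, from -0.048 to 0.0032 for Tomm6 and from -0.0094 to 0.19 for Tomm70a. Depth limits Slc25a27 and Timm8a1 most, with as few as 10 reads in a library.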
